A study of Homo sapiens with 5 samples.

Results

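Vimentin, the product of VIM, is the intermediate filament protein of mesenchymal cells, where it carries mechanical load and takes part in migration. Epithelial cells build their filaments from keratins, and carcinoma cells that gain mesenchymal traits (epithelial-mesenchymal transition, EMT) often start to make vimentin beside them. SW480 is a human colorectal carcinoma line with a constantly active Wnt pathway, so a count of VIM messages in single cells sorts tumor cells by a mesenchymal marker without asking anything of the rest of the transcriptome.

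The cells compared here came from tumors that grew in zebrafish larvae injected with GFP-labelled SW480 cells and were dissected at 4 days post injection (4 dpi). Cells were chosen by their VIM count: VIM-expressing cells were those with at least 3 VIM UMIs (unique molecular identifiers, 1 per captured message) and VIM-zero cells those with 0. Of 768 wells of the 2 plates of 4 dpi, 291 held a passing cell, with more than 2000 human genes and under 25% of UMIs on mitochondrial genes. Of these 291, 60 were VIM-expressing and 178 VIM-zero, 238 in all, and the remaining 53 cells had 1 or 2 VIM UMIs and belonged to neither group. The whole series held 822 passing cells. Library 10 gave 30 VIM-expressing and 74 VIM-zero cells, and library 11 gave 30 and 104.

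The series also holds 3 libraries (6, 7 and 8) of the same line dissected at 1 dpi, and the same rule found 29 VIM-expressing and 433 VIM-zero cells there. The line carried a GFP lentiviral label, dissected tumors were kept with an anoikis inhibitor before digestion, and every plate was filled from a pool of many larvae, so a library averages many tumors and no cell can be assigned to its host. Each plate was 1 library, each time point was spread over both flow cells, and nothing states that the libraries of a time point came from separate injections, so p-values measure only the spread between plates. All 5 plates used the same 384 well barcodes, which mark positions and not shared cells. Libraries held between 4487175 and 7632953 UMIs of human genes, and the ERCC spike-in controls took 1.30% to 3.57% of a library.

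VIM lies on chromosome 10 (GRCh38, chr10:17228241-17237593, plus strand, GENCODE v44). The antisense gene VIM-AS1 on the minus strand (chr10:17214239-17230018) overlaps 1778 bases of it, and no source used here says how strand entered the counting. VIM-AS1 had 4 and 5 UMIs in the VIM-expressing sums of libraries 10 and 11 and 2 and 3 in the VIM-zero sums.

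VIM messages were concentrated in few cells. In library 10 the VIM-expressing cells held 312 of 348 VIM UMIs (89.7%), with a median of 7.5 and a highest cell of 34. In library 11 they held 373 of 407 (91.6%), with a median of 7 and a highest cell of 66. These counts chose the group and are given as a description. At the edge of the rule, 10 cells of 4 dpi had exactly 3 VIM UMIs (median depth 17986.5 UMIs, median mitochondrial share 11.5%) and 17 had exactly 2 (24096 UMIs and 13.7%), so those just below the threshold were the deeper ones. Among the wells of 4 dpi with at most 200 genes, which hold little but stray RNA, library 10 had 1 VIM UMI among 22516 human UMIs and library 11 had 0 among 13893.

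**Figure D1:**
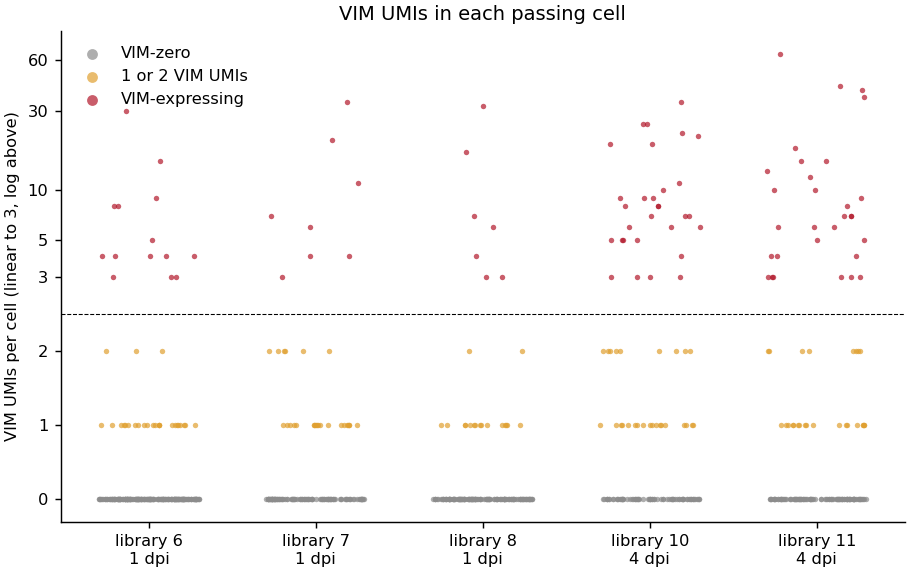
VIM UMIs (vertical axis, linear to 3 and logarithmic above) in each of the 822 passing cells, by library, with random sideways spread. Points above the dashed line are the VIM-expressing cells: 30 each in libraries 10 and 11 of 4 dpi against 14, 8 and 7 in libraries 6, 7 and 8 of 1 dpi.

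VIM-expressing cells took a larger share of the tumor cells at 4 dpi than at 1 dpi. Their share was 22.9% (exact Clopper-Pearson 95% interval 16 to 31.1) in library 10 and 18.8% (13 to 25.7) in library 11, against 6.17%, 5.63% and 4.32% in libraries 6, 7 and 8. The mean was 20.8% ± 2.94 (SD, n = 2) at 4 dpi and 5.37% ± 0.950 (SD, n = 3) at 1 dpi, and every library of 4 dpi lay above every library of 1 dpi. An exact two-sided permutation test over libraries gave p = 0.1, the smallest that 3 libraries against 2 allow. With every cell thinned to 5000 UMIs, the share of cells with at least 1 VIM UMI was 20.9% and 22.2% at 4 dpi and 5.66% to 7.11% at 1 dpi, and the libraries again did not overlap. The share with at least 3 UMIs after thinning was 5.49% at 4 dpi and 0.892% at 1 dpi, as means. Intervals cover counting error only.

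Summed over all passing cells, VIM stood at 87.8 and 106 counts per 1000000 UMIs (CPM) in libraries 10 and 11 and at 17.8, 23.0 and 19.2 CPM in libraries 6, 7 and 8. The rise from 1 to 4 dpi was 2.29 on the log2 scale (SE 0.14, adjusted p = 2.9e-08, edgeR quasi-likelihood test with Benjamini-Hochberg adjustment), against a background in which 13.4% of 12666 genes were called higher and 14.2% lower, and by size VIM ranked 47 of the 1694 genes called higher. Within the VIM-expressing cells the mean was 10.4 and 12.4 VIM UMIs in libraries 10 and 11, against 7.43, 11.1 and 10.3 in libraries 6, 7 and 8, so these means overlapped between the time points.

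VIM-expressing cells of 4 dpi were deeper and had a lower mitochondrial share than VIM-zero cells. In library 10 their median was 40135 UMIs against 22148.5, and in library 11 it was 22146.5 against 17973. The median mitochondrial share was 7.34% against 13.7% in library 10 and 10.5% against 13.3% in library 11, and the median ERCC share was 0.617% against 1.21% and 2.01% against 2.22%. Since a deeper cell is more likely to reach 3 VIM UMIs, the number of genes called and the list medians below are given also with cells thinned to 5000 UMIs and with cells between the lower and upper quartile of depth of their time point, which left 11 VIM-expressing cells in library 10 and 14 in library 11. In that quartile range the ratio of the median depths was 0.976. For the thinned cells the groups stayed those formed on the full counts, so thinning did not undo the choice of deeper cells. Shares of cells in which a gene was seen are given below at full depth only. They rise with depth and are not matched for it between the groups.

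Markers of other cell types were scarce in both groups. The 10 epithelial markers summed to 4032 and 6069 CPM in VIM-expressing cells and 5337 and 4632 CPM in VIM-zero cells of libraries 10 and 11, higher in VIM-zero cells of library 10 and in VIM-expressing cells of library 11. The 10 fibroblast markers summed to 57.1 and 22.2 CPM against 42.8 and 35.7 CPM, mostly from LUM, with COL1A2, DCN, THY1, POSTN and FAP at 0 or without a value. Leukocyte, endothelial and erythroid markers summed to at most 9.66, 5.56 and 4.02 CPM in any sum of 4 dpi. The groups were compared gene by gene, on sums of UMIs per library and group, with VIM itself left out.

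No gene passed the test between the groups at 4 dpi. In the edgeR quasi-likelihood test with libraries as blocks, 0 of 11054 genes were called (0.00%) at a Benjamini-Hochberg adjusted p under 0.05, and the smallest adjusted p was 0.110. At an unadjusted p under 0.05, 232 genes were higher (2.10%) and 239 lower (2.16%), and DESeq2 also called 0, with 124 and 103 at an unadjusted p under 0.05. The count depended on the libraries that shared the fit: it was 13 higher and 9 lower of 10433 genes with the libraries of 4 dpi alone (0.125% and 0.0863%), 11 and 4 without library 8, 8 and 8 without library 10, 4 and 3 without library 11, 2 and 2 without library 6, and 0 and 0 without library 7. Thinning gave 3 higher and 7 lower of 6229 genes (0.0482% and 0.112%) and cells of the quartile range 11 and 2 of 9003 (0.122% and 0.0222%). DESeq2 on the libraries of 4 dpi alone called 0, with 81 higher and 45 lower at an unadjusted p under 0.05. The fit of all 5 libraries includes sums of as few as 7 cells, and without the libraries that had such sums (7 and 8) it called 30 higher and 19 lower. The genes below are therefore given with their values, and none is called by the test of all 5 libraries.

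Among the 10 genes of smallest p on the higher side were an annexin pair, genes of the cell surface and caveolae, and genes of mitosis. ANXA1 encodes a calcium-dependent membrane-binding protein. Its level was 432 and 281 CPM in VIM-expressing cells of libraries 10 and 11 and 125 and 130 CPM in VIM-zero cells (log2 ratio 1.45, SE 0.33, adjusted p = 0.289, edgeR quasi-likelihood), and it was seen in 96.7% and 86.7% against 66.2% and 66.3% of the cells. With the libraries of 4 dpi alone its adjusted p was 0.010 (edgeR quasi-likelihood), and thinning left a log2 ratio of 1.51. Cells with 1 or 2 VIM UMIs also stood above VIM-zero cells for ANXA1, with a log2 ratio of 1.16 in a fit of their own. ANXA2, its relative in membrane repair and plasminogen binding, had 1285 and 1309 CPM against 727 and 641 CPM (log2 ratio 0.93, SE 0.21). For both annexins, both VIM-expressing sums lay above both VIM-zero sums, which the choice by p favours.

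Other genes on that side act at the membrane and in cell shape. PTRF (cavin-1, which coats caveolae) stood at 37.5 and 64.5 CPM against 16.2 and 19.0 CPM, a log2 ratio of 1.50. CAV1, the main protein of caveolae, was the 1 gene called higher at 1 dpi. At 4 dpi it had a log2 ratio of 1.22 (SE 0.31), from 78.8 and 61.1 CPM against 31.8 and 27.9 CPM. It was seen in 70.0% and 56.7% against 24.3% and 26.9% of the cells, at full depth and so not matched for depth. Both caveola genes had ratios above 0 in both libraries. The rule that named PTRF required this, and CAV1 was picked after its values were seen, so the agreement is not evidence. CDC42EP1, an effector of the GTPase CDC42 that reshapes the actin cytoskeleton, had 77.3 and 73.6 CPM against 28.5 and 15.2 CPM (log2 ratio 1.83). EMP3, a membrane glycoprotein, had 47.4 and 46.4 CPM against 23.5 and 5.07 CPM, and its log2 ratio was 1.92 at 4 dpi and 1.76 at 1 dpi. DCBLD2, a transmembrane receptor, had a log2 ratio of 1.18, and GTPBP2, a GTP-binding protein, one of 1.30. SPRR2D, a cornified envelope protein of squamous epithelium, had too few UMIs for the rule on named genes and was picked after its values were seen: it had 43.6 and 21.5 CPM against 4.47 and 2.53 CPM (log2 ratio 3.18, SE 0.59), from cells that made up 33.3% and 23.3% against 8.11% and 5.77% of the groups.

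**Figure D2:**
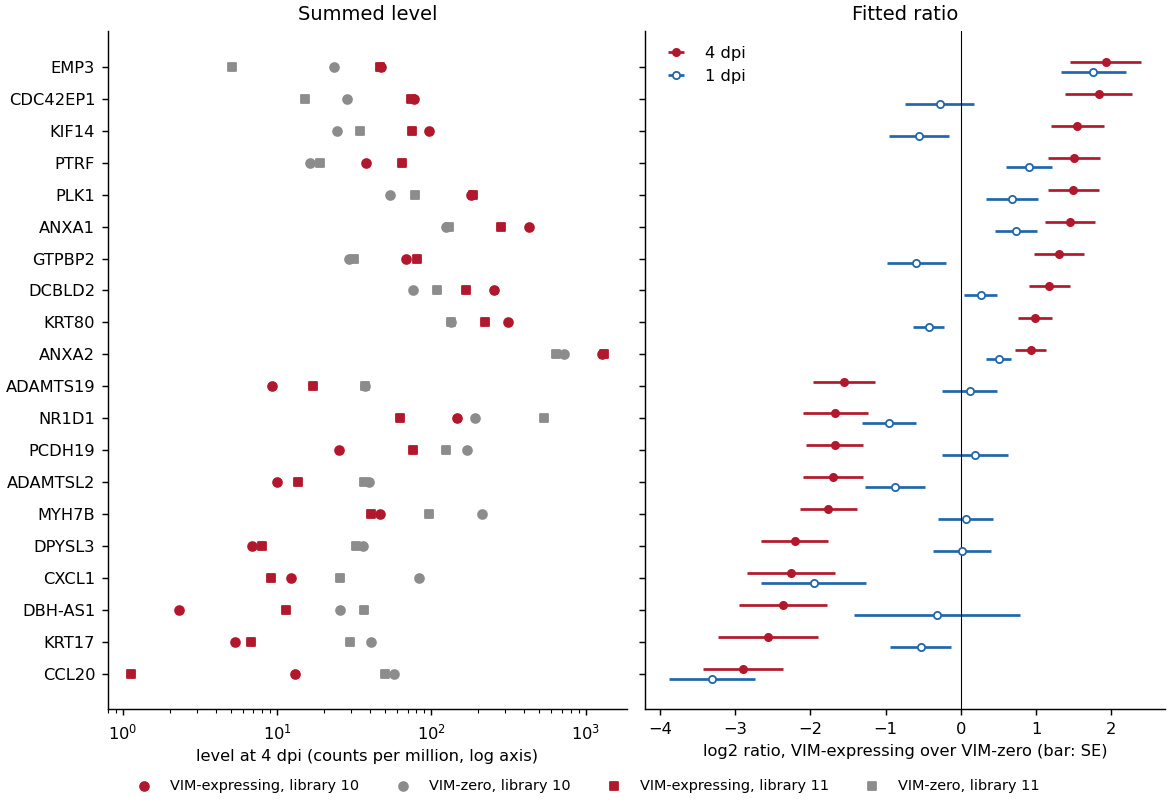
The 10 genes of smallest p in each direction at 4 dpi: their level in CPM (left, logarithmic axis) in the summed VIM-expressing (red) and VIM-zero (grey) cells of library 10 (circles) and library 11 (squares), and their fitted log2 ratio with its SE (right) at 4 dpi (red) and 1 dpi (blue, open). The groups of 4 dpi do not overlap for any of the 20 genes, which the choice by p favours, and at 1 dpi 6 of the 10 higher genes were above 0 and 6 of the 10 lower genes below 0.

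The 10 genes of smallest p on the lower side held inflammatory messages, a keratin and genes of neural or matrix biology. DPYSL3, a cytoskeletal regulator of neurite growth, stood at 6.89 and 7.92 CPM in VIM-expressing cells against 35.7 and 32.5 CPM in VIM-zero cells (log2 ratio -2.21, SE 0.45). MYH7B, a myosin heavy chain, had 46.7 and 40.8 CPM against 214 and 97.2 CPM, and PCDH19, a protocadherin, 25.3 and 75.9 CPM against 170 and 125 CPM. These 3 genes differed at 4 dpi by -1.68 to -2.21 on the log2 scale and at 1 dpi by 0.01 to 0.19. ADAMTSL2 and ADAMTS19, of the extracellular ADAMTS family, had log2 ratios of -1.70 and -1.55. NR1D1, a repressor of the circadian clock, had 147 and 62.3 CPM against 192 and 540 CPM, and its VIM-zero libraries lay far apart. DBH-AS1, an antisense RNA whose reads may belong to its partner gene, had a log2 ratio of -2.37. CCL20 and CXCL1 are described with the chemokines and KRT17 with the keratins.

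At 1 dpi the same test called 8 genes, 1 higher and 7 lower of 11054 (0.00905% and 0.0633%), from sums of 14, 8 and 7 VIM-expressing cells. CAV1 was higher (log2 ratio 1.73, SE 0.27), and NR4A1, FOSB, JUNB, HES1, MT1E, CCL20 and ELF3 were lower. The contrast between the time points itself called 0 of 11054 genes (0.00%, smallest adjusted p = 0.240, edgeR quasi-likelihood; 262 higher and 201 lower at an unadjusted p under 0.05, or 2.37% and 1.82%; DESeq2 also called 0, with 124 and 90), so for no gene was a difference between 4 and 1 dpi shown. The 3 genes of smallest p for that contrast were CLU, FOSB and JUN. CLU, a secreted chaperone, had a log2 ratio of -0.63 (SE 0.23) at 4 dpi and 1.01 (SE 0.20) at 1 dpi. FOSB, a subunit of the AP-1 factor, had -0.03 and -1.64, and its partner JUN 0.54 and -1.22.

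Lists of genes with a common role were then followed; the median log2 ratio of all genes tested was -0.02 at 4 dpi. The S100 proteins and annexins, both calcium-binding families, had a median of 0.73. Of 18 tested members, 9 were higher and 0 lower at an unadjusted p under 0.05, against 2.10% and 2.16% of all genes, and 16 of 18 had a ratio above 0. S100A6 had 1049 and 2060 CPM in VIM-expressing cells of libraries 10 and 11 and 879 and 776 CPM in VIM-zero cells. S100A10, the partner of ANXA2, had 653 and 872 CPM against 472 and 398 CPM, a log2 ratio of 0.80 (SE 0.23). S100A2, low but with the largest ratio of the list, had 14.5 and 18.1 CPM against 1.12 and 2.53 CPM (log2 ratio 3.12, SE 0.68) and was seen in 30% of the cells of both libraries against 2.70% and 5.77%. S100A16 (0.84) and ANXA3 (0.80) lay close to the median of the list, ANXA5 lay at 0.54, and ANXA4 (-0.13) was the lowest member.

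The S100 and annexin median was 0.65 in thinned cells and 0.85 in cells of the quartile range. It was 1.03 in library 11 and 0.24 in library 10. Counted cell by cell, which gives every cell the same weight, these genes took a median of 0.551% of the UMIs of a VIM-expressing cell in library 10, 0.397% of a cell with 1 or 2 VIM UMIs and 0.347% of a VIM-zero cell. In library 11 the medians were 0.583%, 0.347% and 0.338%. Cells with 1 or 2 VIM UMIs, in a fit of their own against VIM-zero cells, had a median log2 ratio of 0.15 for the list. In that fit 1 of 16 members was higher and 0 lower at an unadjusted p under 0.05, against 119 higher and 161 lower of all 10133 genes. At 1 dpi the list had a median log2 ratio of 0.37, with 7 members higher and 2 lower at an unadjusted p under 0.05 (3.31% and 4.23% of all genes).

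Wnt target genes had ratios on the other side. Of 29 tested, 0 were higher and 9 lower at an unadjusted p under 0.05, against 2.10% and 2.16% of all genes. In the list 25 had a ratio under 0, and the median was -0.61. LGR5, the intestinal stem cell receptor, was scarce, with 6.89 and 2.26 CPM in VIM-expressing cells against 14 and 12.7 CPM (log2 ratio -1.52, SE 0.64). The feedback inhibitors were better covered. AXIN2, part of the complex that degrades beta-catenin, had 109 and 123 CPM against 199 and 170 CPM (log2 ratio -0.67, SE 0.23). NKD1 had 200 and 359 CPM against 502 and 535 CPM (-0.95, SE 0.30), and NOTUM, a secreted enzyme that inactivates Wnt ligands, 253 and 318 CPM against 652 and 412 CPM (-0.87, SE 0.28). All 4 had lower levels in both VIM-expressing sums than in either VIM-zero sum, which was so for 17.5% of all genes and for 18 of the 29 members.

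Most other members had ratios under 0 as well. TCF7, a DNA-binding partner of beta-catenin, had 26.0 and 20.4 CPM against 45.8 and 52.8 CPM (log2 ratio -1.07), PROX1 lay at -0.90, SP5 at -0.71, the ephrin receptor EPHB2 at -1.42, and CTNNB1, beta-catenin itself, at -0.49. The highest members were CD44 (0.53), an adhesion receptor, and CCND1 (0.44, from 296 and 368 CPM against 202 and 293 CPM), a cyclin. No member passed the adjusted test, and with the libraries of 4 dpi alone none did either.

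The median of the Wnt targets was -0.64 in thinned cells and -0.61 in cells of the quartile range, -0.71 in library 10 and -0.37 in library 11. Cell by cell, they took a median of 0.443% of the UMIs of a VIM-zero cell, 0.394% of a cell with 1 or 2 VIM UMIs and 0.235% of a VIM-expressing cell in library 10, and 0.416%, 0.357% and 0.305% in library 11. The per-cell medians of cells with 1 or 2 VIM UMIs thus lay between those of the groups in both plates. Their summed share in library 10, at 0.446%, was close to the 0.447% of VIM-zero cells. In a fit of their own against VIM-zero cells the median log2 ratio was -0.02. In that fit 2 of 27 members were higher and 1 lower at an unadjusted p under 0.05, against 119 higher and 161 lower of all 10133 genes. At 1 dpi the list's median was -0.01, with 2 members higher and 5 lower at an unadjusted p under 0.05 (3.31% and 4.23% of all genes). The order differed between libraries: the medians of VIM-zero and VIM-expressing cells were 0.282% and 0.252% in library 6, 0.292% and 0.205% in library 7 and 0.304% and 0.396% in library 8. AXIN2 differed by -0.71 at 1 dpi as well, while NKD1, PROX1 and TCF7 had ratios above 0 there (0.39, 0.48 and 0.55). The contrast between time points called none of them at an adjusted p under 0.05 (edgeR quasi-likelihood), while 0 of 29 members were higher and 8 lower at an unadjusted p under 0.05, against 1.82% of all genes lower, and the median difference was -0.44.

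**Figure D3:**
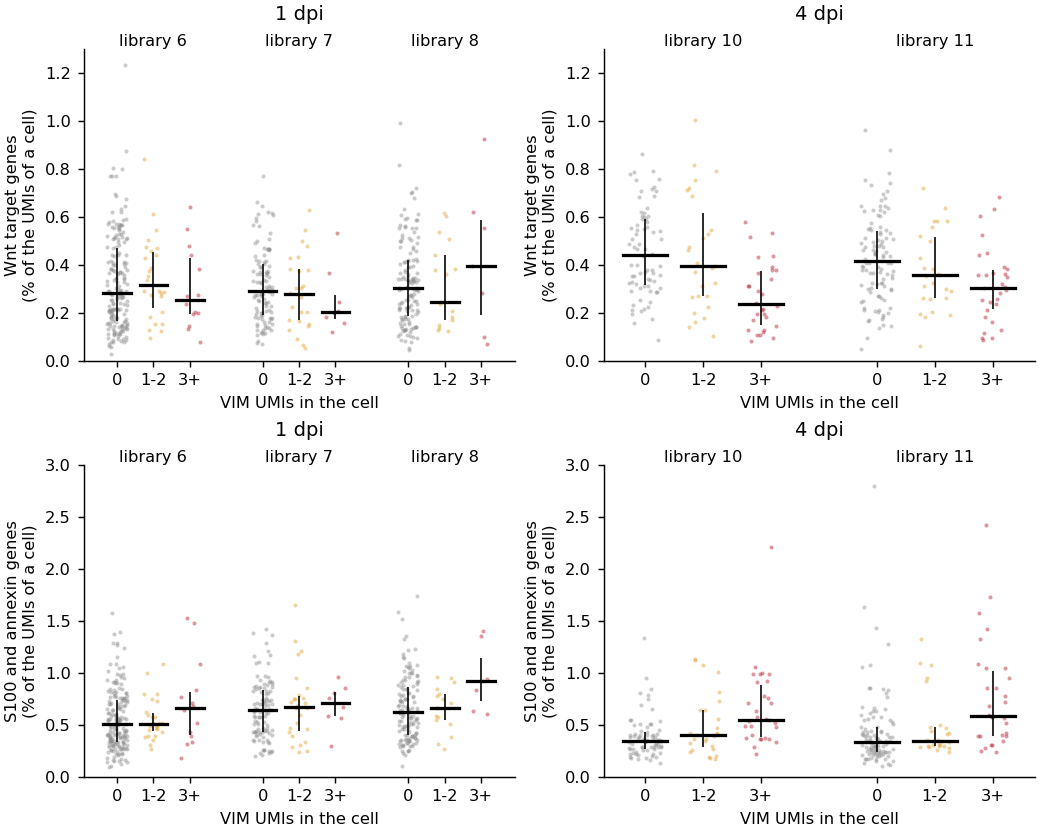
Share of each cell's UMIs on Wnt target genes (top) and on S100 and annexin genes (bottom), in percent, for cells with 0 (grey), 1 or 2 (yellow) and 3 or more (red) VIM UMIs in each library; thick bars are medians and thin lines span the quartiles. At 4 dpi the Wnt medians step down from 0.443% to 0.235% in library 10 and from 0.416% to 0.305% in library 11, and the S100 and annexin medians step up from 0.347% to 0.551% and from 0.338% to 0.583%.

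Mitosis genes were high in the summed VIM-expressing cells of 4 dpi through few cells. Of 54 tested genes of G2 and mitosis, 27 were higher and 0 lower at an unadjusted p under 0.05, against 2.10% and 2.16% of all genes. The median log2 ratio was 0.73. TPX2, which assembles spindle microtubules, had 222 and 182 CPM against 58.6 and 91.7 CPM (log2 ratio 1.45, SE 0.40), and UBE2C, which marks mitotic cyclins for destruction, 223 and 180 CPM against 72.6 and 91.7 CPM (1.29, SE 0.36). PLK1, a kinase of mitotic entry, and KIF14, a motor of cytokinesis, are not on the list but were among the 10 genes of smallest p. PLK1 had 180 and 186 CPM against 53.6 and 77.7 CPM (log2 ratio 1.50, SE 0.34), and KIF14 97.2 and 74.7 CPM against 24.6 and 34.2 CPM (1.55, SE 0.35). In each library a single cell held much of this signal: 1 cell had 63.4% and 56.1% of the PLK1 UMIs of the VIM-expressing sums, and 1 cell held 39.1% (library 10, of 113833 UMIs, with 11 VIM UMIs) and 37.9% (library 11, of 48077 UMIs, with 18) of all UMIs of the list, against 11.5% and 11.0% in the VIM-zero sums.

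Without the cell richest in these genes in each sum, the median was 0.19 and PLK1 had a log2 ratio of 0.63. There 0 of 53 members were higher at an unadjusted p under 0.05, against 162 of all 10930 genes. The median was 0.44 in thinned cells and -0.22 in cells of the quartile range. Among genes called with the libraries of 4 dpi alone, KIF2C, TPX2 and UBE2C are members of the list, and none of the 3 was called without those cells. Cell by cell the medians lay close together, at 0.244% for VIM-expressing and 0.202% for VIM-zero cells in library 10 and 0.237% and 0.230% in library 11. S phase genes had a median log2 ratio of 0.01, and of -0.06 in thinned cells and -0.30 in cells of the quartile range. At an unadjusted p under 0.05, 1 of 41 was higher and 0 lower, against 2.10% and 2.16% of all genes.

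Chemokine genes mostly had ratios under 0, and for some of them single cells held much of the UMIs. Of 10 tested, 0 were higher and 3 lower at an unadjusted p under 0.05, against 2.10% and 2.16% of all genes, with a median of -0.81. CCL20, which attracts lymphocytes and dendritic cells, had the smallest p of the lower side, with 13 and 1.13 CPM against 57.5 and 50.3 CPM (log2 ratio -2.90, SE 0.53), but was seen in 14.9% and 12.5% of the VIM-zero cells, and 1 cell held 68.9% and 56.3% of their CCL20 UMIs. CXCL1, a neutrophil attractant, had 12.2 and 9.06 CPM against 82.7 and 25.3 CPM, with 56.1% and 48.3% of the VIM-zero UMIs in 1 cell. Cell by cell, chemokine genes took a median of 0.0157% of the UMIs of a VIM-expressing cell and 0.00871% of a VIM-zero cell in library 10. In library 11 the medians were 0.00953% and 0.00931%. The lower level in the sums was thus not seen in these per-cell medians of 4 dpi. Without the cell richest in chemokine UMIs in each sum, the median log2 ratio was -0.82. There 1 of 9 members was higher and 3 lower at an unadjusted p under 0.05, against 227 and 245 of all 10912 genes. Of the 4 members that could be tested in thinned cells the median was -0.89. In cells of the quartile range CCL20 had a log2 ratio of 0.68 and the list, with 6 members tested, a median of 0.71. At 1 dpi CCL20 was called lower (log2 ratio -3.31, SE 0.57), and 6 of the 10 members had an unadjusted p under 0.05, all lower, against 4.23% of all genes lower. CXCL1, CXCL2 and CXCL3 are near-identical in sequence, as ANXA2 and the simple keratins are to their pseudogenes, and reads may be split among such copies.

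**Figure D4:**
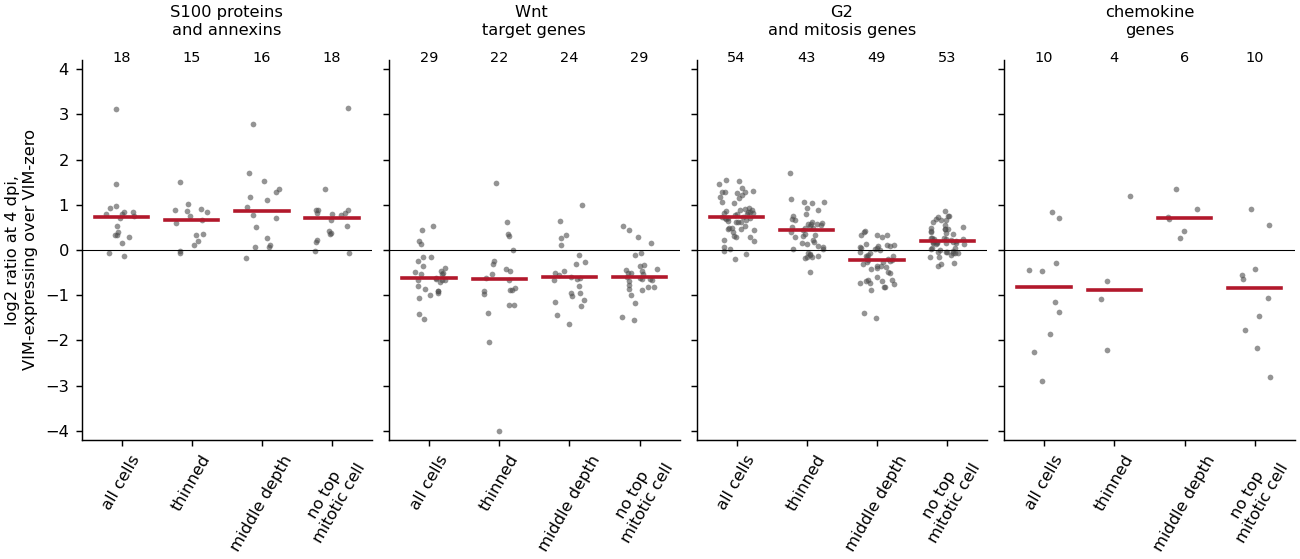
Log2 ratio at 4 dpi of each tested member (points; any beyond the vertical axis are drawn at its edge) of 4 gene lists in all cells, in cells thinned to 5000 UMIs, in cells between the quartiles of depth, and without the cell richest in mitosis genes of each sum; red bars are medians and numbers count members. The S100 and annexin and the Wnt medians stay on their side of 0 in all 4 settings (0.65 to 0.85 and -0.64 to -0.59), while the mitosis median goes from 0.73 to -0.22 and the chemokine median from -0.81 to 0.71.

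Other mesenchymal genes had small ratios, more often above 0 than under it. Of 31 tested, 3 were higher and 1 lower at an unadjusted p under 0.05, against 2.10% and 2.16% of all genes. In the list 20 had a ratio above 0, and the median was 0.14 (-0.09 in library 10 and 0.29 in library 11). It was 0.39 over 17 members in thinned cells and 0.34 over 27 in cells of the quartile range. In that range 6 were higher and 2 lower, against 256 and 220 of all 9003 genes. Cell by cell, the list took a median of 0.189% of the UMIs of a VIM-zero cell, 0.202% of a cell with 1 or 2 VIM UMIs and 0.220% of a VIM-expressing cell in library 10, and 0.177%, 0.196% and 0.228% in library 11. The medians had that order in libraries 6, 7 and 8 too. The 3 were LAMB3, a laminin chain of the epithelial basement membrane (413 and 556 CPM against 201 and 267 CPM, log2 ratio 1.05), the adhesion molecule L1CAM (0.80) and the lectin LGALS1 (0.71), and the 1 lower was COL4A1, a basement membrane collagen (-1.25). Of 12 transcription factors of EMT, 5 could be tested, and none had an unadjusted p under 0.05. ZEB1 had 16.8 and 20.4 CPM against 7.26 and 15.2 CPM (log2 ratio 0.78, SE 0.51), SNAI1 9.18 and 19.2 CPM against 21.2 and 19.4 CPM (-0.58, SE 0.45), SNAI2 66.6 and 53.2 CPM against 57.5 and 79.0 CPM (-0.17, SE 0.35), TCF3 lay at 0.44 and PRRX1 at -1.54. At these UMI numbers, differences of the size of their SE were not detectable.

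As a list, keratins had a median of -0.36, with -0.90 in library 10 and 0.35 in library 11, and of -0.24 in thinned cells and -0.22 in cells of the quartile range. Of 13 tested, KRT80 was higher and KRT17 lower at an unadjusted p under 0.05, against 2.10% and 2.16% of all genes. KRT8 had 1315 and 2392 CPM against 2243 and 1657 CPM, KRT18 600 and 1284 CPM against 835 and 770 CPM, and KRT19 364 and 833 CPM against 504 and 532 CPM. For these 3 simple keratins the VIM-expressing level was the lower in library 10 and the higher in library 11, so the libraries went opposite ways. KRT80 had 315 and 223 CPM against 134 and 134 CPM (log2 ratio 0.99, SE 0.23), and KRT17 5.36 and 6.79 CPM against 40.8 and 29.6 CPM (-2.56, SE 0.67), with 1 cell holding 55.7% of its UMIs in the VIM-zero sum of library 11. Among other intermediate filament genes the nuclear lamin LMNA had 445 and 560 CPM against 346 and 387 CPM (0.45, SE 0.21), and 1 of 6 members had an unadjusted p under 0.05. Epithelial junction and identity genes had a median of 0.06, with 1 of 42 higher and 0 lower, and of 0.03 in thinned cells and 0.22 in cells of the quartile range.

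Immediate early genes, which cells switch on within minutes of a stimulus, differed by time point in their values. At 4 dpi 3 of 32 were higher and 2 lower at an unadjusted p under 0.05 (2.10% and 2.16% of all genes), with a median of -0.14. At 1 dpi 1 was higher and 19 lower (3.31% and 4.23% of all genes), with a median of -0.87. The sign at 4 dpi depended on the cells compared. The median was -0.21 in thinned cells and -0.30 for cells with 1 or more VIM UMIs (1 higher, 8 lower, against 335 and 271 of all 11470 genes). It was 0.31 in cells of the quartile range (8 of 30 higher, 1 lower, against 256 and 220 of all 9003 genes). FOSL1, an AP-1 subunit, had 262 and 241 CPM against 165 and 145 CPM at 4 dpi (log2 ratio 0.70), and KLF2 0.83 at 4 dpi and -1.80 at 1 dpi. NR4A1 lay at -1.19 at 4 dpi and -3.00 at 1 dpi. Dissociation of the tissue can itself induce these genes, and its part was not tested. Of the remaining lists, filament linkers (0.37), actin cytoskeleton (0.12), YAP and TEAD targets (-0.29), TGF-beta and SMAD genes (-0.13), Notch targets (-0.18), colon differentiation (0.03), hypoxia and glycolysis (0.01), heat shock (0.17), cytosolic ribosomal proteins (-0.04) and interferon-stimulated genes (0.07) had medians between -0.29 and 0.37 at 4 dpi, with at most 3 members on either side at an unadjusted p under 0.05. The largest shares on the lower side were 3 of 17 colon differentiation genes (17.6%) and 2 of 21 Notch targets (9.52%), against 2.16% of all genes. On the higher side the largest was 3 of 35 actin cytoskeleton genes (8.57%), against 2.10% of all genes. The medians of these lists lay between -0.39 and 0.27 in thinned cells and between -0.48 and 0.22 in cells of the quartile range. Libraries 10 and 11 had medians of opposite sign for actin cytoskeleton (-0.17 and 0.36) and YAP and TEAD targets (0.14 and -0.37). The same held for hypoxia and glycolysis (-0.04 and 0.13), heat shock (-0.23 and 0.48) and cytosolic ribosomal proteins (-0.40 and 0.29).

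**Figure D5:**
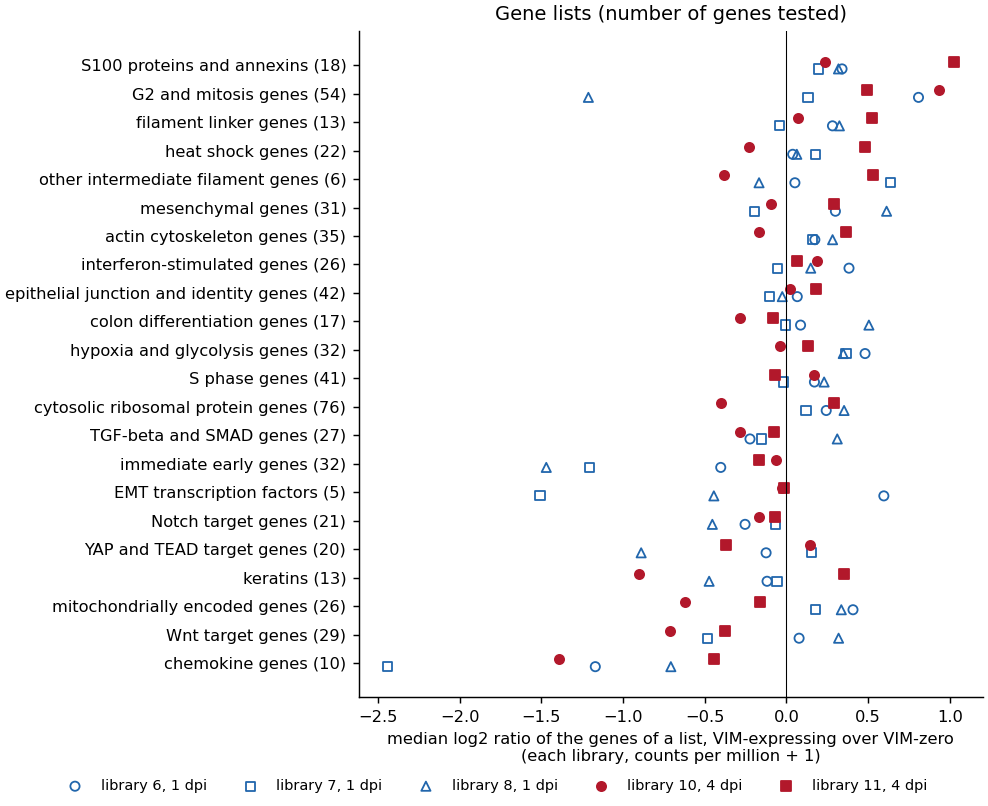
Median log2 ratio of VIM-expressing over VIM-zero cells (horizontal axis, from CPM plus 1) over the tested genes of each of 22 lists, in each library: filled red for libraries 10 and 11 of 4 dpi, open blue for libraries 6, 7 and 8 of 1 dpi. S100 proteins and annexins lie above 0 in all 5 libraries and chemokine genes below 0 in all 5; Wnt targets lie below 0 in both libraries of 4 dpi and on both sides at 1 dpi.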

How the data were processed

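Tumor cells of 1 dpi (3 libraries) and 4 dpi (2 libraries) were sorted singly into plates and measured by SORT-seq (CEL-Seq2 chemistry). The authors aligned reads with BWA to a human reference (hg38, per the submitters' processing notes) and deposited unnormalized UMI counts for each gene in each well; no source used here gives versions. Cells and groups were formed as the report states, on 15028 human genes listed in all libraries and seen in at least 10 wells. No doublet caller was run.

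UMIs were summed per library and group and fitted in edgeR 4.0.16 (R 4.3.3; TMM, filterByExpr, quasi-likelihood test, two-sided, Benjamini-Hochberg) with all 5 libraries, library as block. VIM between time points was tested on sums of all passing cells. Thinning used seed 1. Fits were also run on simulated sums in which every gene had the same spread and no single cell stood out. The real sums differ in both, so that run does not bear on how stable the counts of called genes are. DESeq2 1.42.0, other filters, cell subsets and left-out libraries were alternatives. Library ratios in the plot of lists use CPM plus 1.

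Members, 22 gene lists and tests were chosen with earlier results of these data known, and some alternatives after seeing the data. Genes named with values are the 10 of smallest p in each direction with the same direction in both libraries and at least 20 UMIs in the higher group of each, the extreme and leading members of the lists, and the 3 of smallest p between time points. Others named (SPRR2D, CAV1, and list members other than the extremes) were picked after their values were seen.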

Additional observations from a re-analysis of the deposited data

Results flagged for a closer look

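Mitochondrially encoded genes had a median log2 ratio of VIM-expressing over VIM-zero cells of -0.38 at 4 dpi (-0.62 in library 10 and -0.16 in library 11) and 0.32 at 1 dpi (0.41, 0.18 and 0.34 in libraries 6, 7 and 8). Every library of one time point had the opposite sign to every library of the other, which is why the list is given here. The difference of the list as a whole was not tested; gene by gene, the contrast between time points called none of its members at an adjusted p under 0.05 (edgeR quasi-likelihood), while at an unadjusted p under 0.05 the ratio was lower at 4 than at 1 dpi for 11 of 26 and higher for 0, against 1.82% and 2.37% of all genes, with a median difference of -0.65. The median at 4 dpi was -0.50 in cells thinned to 5000 UMIs and -0.34 in cells between the quartiles of depth. The median mitochondrial share per cell had the same direction except in library 7: it was lower in VIM-expressing than in VIM-zero cells in both libraries of 4 dpi, and at 1 dpi it was 14.3% against 12.2%, 9.77% against 11.2% and 12.8% against 10.4% in libraries 6, 7 and 8.

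The 477 wells of 4 dpi that did not pass the cell filter, which no comparison used, held 22 VIM UMIs among 1417588 UMIs. That is 15.5 CPM, against 97.4 CPM in the passing cells.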

How the results depend on the processing

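The counts of genes called were the least stable values. At 4 dpi the number called higher and lower, 0 and 0, became 3 and 7 with thinned cells, 11 and 2 with cells between the quartiles of depth, 0 and 1 with the VIM group set at 1 or more UMIs, 13 and 9 with the libraries of 4 dpi alone and 24 and 18 with no filter on low counts, and leaving out a library gave 0 to 11 higher and 0 to 8 lower. Alternatives chosen after seeing the data gave 29 and 9 (4 dpi alone, quartiles of depth), 2 and 11 (4 dpi alone, 1 or more VIM UMIs after thinning), 0 and 1 (4 dpi alone, mitochondrial share under 15%), 30 and 19 (sums of at least 10 cells) and 6 and 6 (4 dpi alone, without the cell richest in mitosis genes). Plate was the block that pairs the groups, since both came from different wells of the same plate. Without the replicate block 0 and 0 genes were called at 4 dpi and 3 and 9 at 1 dpi. At 1 dpi, 1 higher and 7 lower became 3 and 10 (thinned), 4 and 7 (quartiles of depth), 0 and 0 (1 or more UMIs) and 3 and 14 (5 or more UMIs). They became 0 and 5 (mitochondrial share under 15%), 2 and 9 (DESeq2), 19 and 111 (no filter), 15 and 5 (sums of at least 10 cells) and 4 and 17 (without the cell richest in chemokines). Without 1 library they were 1 to 16 higher and 7 to 36 lower. The difference between time points, 0 and 0, became 0 and 2 (thinned), 4 and 0 (quartiles of depth), 4 and 1 (5 or more UMIs), 24 and 10 (no filter) and 4 and 8 (sums of at least 10 cells), and 0 to 8 and 0 to 10 without 1 library. The cause was not tested.

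The difference in the share of VIM-expressing cells ranged from 4.60 to 20.5 points (thinned 4.60, quartiles of depth 11.1, 1 or more UMIs 20.5, mitochondrial share under 15% 19.1; 13.4 to 17.5 without 1 library), and the rise of VIM from 2.14 to 2.58. The depth ratio of 1.52 was 0.976 between the quartiles of depth by construction (1.23 to 1.81 without 1 library). The S100 and annexin median ranged from 0.24 to 1.03 and the Wnt median from -0.75 to -0.33 (1 or more UMIs), -0.71 to -0.38 without 1 library. The mitosis median of 0.73 was -0.22 between the quartiles of depth, 0.37 without the cell richest in chemokines, 0.19 without that richest in mitosis genes and, with 4 dpi alone and groups made after thinning, 0.18 (1 or more UMIs) and -0.077 (2 or more); it was 0.50 to 0.95 without 1 library. The chemokine median of -0.81 was 0.71 between the quartiles of depth, -2.27 with 4 dpi alone and a mitochondrial share under 15%, and -1.63 to -0.46 without 1 library.

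Of 1690 alternative values of 65 named genes, 1655 kept their direction and 35, in 15 genes, did not. Between the quartiles of depth (all libraries, then 4 dpi alone) the log2 ratio was -0.16 and -0.14 for PLK1, 0.68 and 0.68 for CCL20, 0.92 and 0.91 for CXCL1, 0.060 and 0.060 for ANXA4, -0.15 and -0.13 for UBE2C, -0.25 and -0.23 for CCNA2, 0.43 and 0.44 for CXCL8, 0.26 and 0.25 for CXCL3, -0.18 and -0.18 for KRT18, 0.074 and 0.074 for SNAI2, 0.079 and 0.076 for FOSB, 0.29 and 0.30 for NR4A1, and 0.19 for SNAI1 with all libraries. FOSB was at 0.082 with 1 or more and 0.057 with 5 or more UMIs and at 0.040 and 0.030 with a mitochondrial share under 15%, and SNAI2 at 0.055 with 5 or more UMIs. Without 1 library the ranges were -0.18 to 0.13 for FOSB, -0.57 to 0.21 for SNAI2, -0.77 to 0.53 for KRT8, -0.47 to 0.74 for KRT18 and -0.47 to 0.65 for KRT19. Of 477 values of 18 other lists, 76 moved beyond the spread between libraries. Groups of 3 or more and of 2 or more VIM UMIs after thinning left too few cells at 1 dpi for a fit of all libraries and were not run so.

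Sums of 7 to 14 VIM-expressing cells at 1 dpi and 30 at 4 dpi limit all comparisons, and 2 plates at 4 dpi leave few degrees of freedom. Doublets, which could join messages of different cells in 1 well, were not assessed.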
